A study of Mus musculus with 24 samples.

Results

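The 368 peaks described here, spread over 340 genes, are positions in 3' untranslated regions (3' UTRs) where Argonaute 2 (AGO2) was found on messenger RNA of wild-type T cells while the authors' deposited table lists 0 reads for T cells lacking miR-155. They were chosen by measured read values, from the 14634 peaks of 4165 genes in that table, on 3 conditions: 0 knockout reads, at least 10 scaled wild-type reads, and no 7-nt or 8-nt match to the seed of miR-155-5p in the deposited peak sequence. They are 2.51% of the peaks, and 8.16% of the genes hold at least 1 of them. Because the genotype difference chose these wild-type-only peaks, their reads and p-values below are a description and no evidence for that difference.

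In the study, AGO2 was immunoprecipitated with a custom rabbit antibody after crosslinking, and the RNA it held was sequenced (HITS-CLIP). The samples were 12 miR-155 KO libraries and 12 WT libraries, all from CD4+ T cells of C57BL/6 mice, taken from spleen and lymph nodes and purified on CD4 beads. Cells of both genotypes had been cultured for 4 days with antibodies to CD3 and CD28 at 1 µg/mL and IL-2 at 20 U/mL. In KO libraries replicates 1 to 6 carried 3' linker 1 and replicates 7 to 12 carried linker 2, and in WT libraries the order was reversed. The table holds 1 pooled value per genotype and peak, so no value below has a replicate error. Each linker was carried by 6 libraries of each genotype, and the pooled values do not show what a linker or a single library contributed.

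MicroRNAs are short RNAs that guide Argonaute proteins to messenger RNAs, mainly by pairing of the seed, the bases near the 5′ end of the microRNA, with a complementary stretch of the 3' UTR. Bound messages are translated less and decay sooner. miR-155 is induced when lymphocytes are activated and is required for normal T helper cell and B cell responses. AGO2 also binds the targets of the other microRNAs of the cell, so a site without a miR-155 seed match may be held by another family.

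Over all peaks the scaled reads summed to 374126 in KO cells and 371088 in WT cells, with 2426 peaks listed at 0 in KO cells and 1151 in WT cells. The median of the deposited log2 ratio, which runs wild type over knockout, was 0.20. Of 8 CD4 T cell markers 7 held peaks, among them Cd4, Cd3e and Cd28, while 1 of 8 B cell, 1 of 9 myeloid, 0 of 7 CD8 or NK cell and 0 of 7 erythroid or platelet markers did. The myeloid marker was Mpeg1, listed at 0 in the knockout and at 122 scaled reads in wild type. No Mpeg1 peak is among the wild-type-only peaks described here. The B cell marker was Cr2, with 11.6 in KO cells and 0 in WT cells. The marker lists did not include the MHC class II genes H2-Aa and H2-Eb1. Each of these had a single peak, which was wild-type-only, with 12.5 and 10.5 scaled reads in wild type. The part of other cell types in the wild-type-only peaks was not tested.

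The seed of miR-155-5p, bases 2 to 8, is in capitals in its mature sequence (sequences from RefSeq, GRCm38.p6). Those of let-7a, miR-21a and miR-30a are shown in the same way, as examples of families with sites printed below.
miR-155-5p: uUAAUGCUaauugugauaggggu
let-7a-5p: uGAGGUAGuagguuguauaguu
miR-21a-5p: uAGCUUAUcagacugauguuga
miR-30a-5p: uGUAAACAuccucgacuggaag

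With the longer sites excluded by rule, the peaks could still hold 6-nt matches to miR-155: the 6mer GCATTA (complement of bases 2 to 7), the offset 6mer AGCATT (bases 3 to 8) or the 6mer-A1 CATTAA (bases 2 to 6 followed by A). The lines below show the 6mer or offset 6mer in capitals, written 5′ to 3′ on the messenger RNA strand, for members in genes that the text describes, chosen among those with many reads; Malt1 and Nr3c1, which also hold a 6mer, are not printed. The coordinates are of GRCm38, from an exact match of the peak to a GENCODE M21 transcript. All of these sites lie in annotated 3' UTRs.
Maf peak 1 (chr8:115704744-115704770, minus strand): ctcatctcatGCATTAcgatgcttgct
P2ry10 peak 2 (chrX:107103665-107103691, plus strand): aaaatttatgGCATTAtattagttaca
Taok3 peak 1 (chr5:117275032-117275058, plus strand): cataaatattGCATTAtccatcctttc
Nedd4 peak 3 (chr9:72749593-72749619, plus strand): acacaaaattGCATTAcaaaagcaaac
Prpf4 peak 1 (chr4:62423803-62423829, plus strand): tcgagtgatgGCATTAtggaaatgtgc
Cbfb peak 3 (chr8:105216200-105216226, plus strand): tatcttgttgGCATTAttttagttgta
Cbfb peak 7 (chr8:105217209-105217235, plus strand): tcataaaatgGCATTAttttagaaaat
Ddx42 peak 1 (chr11:106248796-106248822, plus strand): ccccaacagtAGCATTcaaagtgtcta

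Sites of other families are shown for the peaks that hold such a site and rank high in reads, and for the peaks of Rasa2 and Rc3h2, regulators of T cells. Capitals mark the 7-nt or 8-nt site.
Ctage5 peak 3, miR-30 (chr12:59190096-59190122, plus strand): accagggatgTGTTTACcatggttgta
Asb8 peak 1, let-7 (chr15:98135602-98135628, minus strand): caaaaccattTACCTCActtgtttgcc
Plcxd2 peak 8, let-7 (chr16:45959367-45959393, minus strand): gaagccacagTACCTCAttttaactgt
Plcxd2 peak 8, miR-27 (chr16:45959354-45959380, minus strand): ctcattttaACTGTGAAaaaaaaaagt
Tnrc6a peak 23, miR-23 (chr7:123194715-123194741, plus strand): accctgagatAATGTGAgaacagtggg
Rab12 peak 2, miR-142-3p (chr17:66495362-66495388, minus strand): ttgttaattACACTACAaggcagacgc
Rasa2 peak 8, miR-21 (chr9:96541103-96541129, minus strand): tcgttgagctTAAGCTAtagttcaaaa
Rc3h2 peak 2, miR-24 (chr2:37374924-37374950, minus strand): caatccggtgcagtaaCTGAGCCAttt

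Most wild-type-only peaks were small. Their wild-type reads had a median of 12.4 scaled reads (quartiles 10.9 and 15.6, highest 62.9), and 327 of the 368 lay under 20. In all they held 5286 scaled reads, 1.42% of those in wild type. Just inside the limit of 10 reads stood peak 3 of Atad2 with 10.04, and just outside it peak 1 of Tubb5 with 9.98, both listed at 0 in the knockout. Peaks listed at 0 in 1 genotype were mostly small in the other, as the plot of peaks listed at 0 by read number shows. Of peaks without a miR-155 site and with 10 to under 12 wild-type reads, 17.2% (170 of 991) were listed at 0 in the knockout, while among those with 24 or more reads 0.641% (20 of 3118) were. The mirrored set, knockout-only peaks with 0 wild-type reads, at least 10 knockout reads and no miR-155 site, numbered 182 in 174 genes. At the same read numbers these were 8.03% (58 of 722) and 0.508% (16 of 3148) of peaks. The depth of the libraries is unknown, so how many of these zeros counting error alone would give was not tested.

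**Figure D1:**
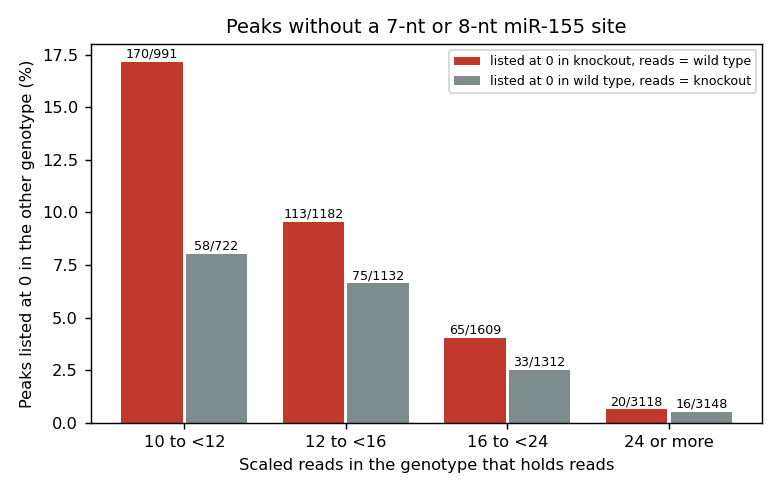
Share of peaks without a 7-nt or 8-nt miR-155 site (in percent) that were listed at 0 in 1 genotype, by the scaled reads of the other genotype. Bars at left of each pair are wild-type-only peaks and at right knockout-only peaks, with counts above each bar; both shares get smaller as reads increase, and they lie closest together at 24 or more reads.

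After Benjamini-Hochberg adjustment across the whole table, the p-values in the authors' deposited table were under 0.05 for 9 of the 368 peaks (2.45%), beside 84 (0.574%) of all 14634 peaks that were so and higher in wild type and 4 (0.0273%) that were higher in the knockout. Unadjusted p-values of the authors' deposited table were under 0.05 in 100 members (27.2%), beside 2.72% of all peaks that were so and higher in wild type, and over 0.5 in 69. Among knockout-only peaks these p-values were under 0.05 in 47 of 182 (25.8%) before adjustment and in 3 after it. Since the same contrast chose the peaks, nothing is read from these shares.

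The 9 peaks with an adjusted p under 0.05 belong to genes of diverse function, and 4 of them hold a 6-nt match to miR-155. Peak 1 of Maf, a transcription factor that drives IL-4 and IL-10 in helper T cells, was listed at 0 in the knockout and at 62.9 scaled reads in wild type, the most of any wild-type-only peak. Its p in the authors' deposited table was 2.84e-08, with a Benjamini-Hochberg adjusted p of 1.30e-05. The peak starts 976 nt into the 3' UTR (chr8:115704735-115704774, exon 1 of 1) and holds the 6mer shown above. The other Maf peak, which starts at 1717, held 29.7 scaled reads in KO cells and 9.38 in WT cells, so the transcript was bound in both genotypes.

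P2ry10, a G protein-coupled receptor for lysophospholipids in lymphocytes, had 2 wild-type-only peaks among its 5. Peak 2 was listed at 0 in the knockout and at 48.3 scaled reads in wild type (adjusted p = 3.08e-07 from the authors' deposited table), and peak 4 was listed at 0 in the knockout and at 10.9 in wild type. Peak 2 holds a 6mer, and peak 4 the word AGCATGA, which differs from the 7-nt site at 1 base. Its peak 5 is no member because it kept a few knockout reads, with 2.87 scaled reads in KO cells and 196 in WT cells (log2 ratio, wild type over knockout, 5.67 in the authors' deposited table). That peak too holds a 6-nt match and no longer one. Peak 1 of the same 3' UTR held 51.4 scaled reads in KO cells and 60.04 in WT cells, so this transcript was bound in both genotypes.

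Taok3, a TAO family kinase of the MAP kinase pathway, had a single peak, with the 6mer, listed at 0 in the knockout and at 24.2 scaled reads in wild type. Ddx42, a DEAD-box RNA helicase, had a peak with the offset 6mer at 0 in KO cells and 25.4 scaled reads in WT cells, while its other peak held 18.3 in KO cells and 22.4 in WT cells. Taok3 thus has no peak with knockout reads, and Ddx42 has one at similar reads in both genotypes.

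The other 5 of the 9 hold no 6-nt match to miR-155. Unc119b, a chaperone of lipid-modified proteins, had 1 peak, listed at 0 in the knockout and at 36.8 scaled reads in wild type (adjusted p = 4.22e-07 from the authors' deposited table). It held no site of any family searched, and it lies in the last exon, 5 of 5, at chr5:115125172-115125211. Gas2l3, a linker of actin and microtubules, had its wild-type-only peak 7 (46.4 scaled reads in wild type) far from the rest. Peak 7 starts 3899 nt into the 3' UTR, while the last of its 6 other peaks ends at 829 nt, and the fourth of them held 46.5 in KO cells and 48.6 in WT cells. Trib1, a pseudokinase that recruits a ubiquitin ligase, had 35.8 scaled reads in wild type at peak 1, at the very start of the 3' UTR, and 11.9 at peak 4. Its peak 5 held 137 in KO cells and 114 in WT cells. Rasa2, a GTPase-activating protein that restrains Ras signalling after T cell receptor contact, had 22 scaled reads in wild type at peak 8, which holds the miR-21 site above. Gng12, a G protein gamma subunit, had 18.8 at peak 5. Its peak 1 held 223 scaled reads in KO cells and 129 in WT cells.

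Reads alone did not set the p-value, as the plot of reads against deposited p-values shows. Ctage5, which acts in export from the endoplasmic reticulum, was listed at 0 in the knockout and at 39.0 scaled reads in wild type at peak 3. That was the fourth highest value among the members, but p was 0.118 in the authors' deposited table. Asb8, a SOCS-box protein, with 30.3 scaled reads in wild type, Plcxd2, a phospholipase-like protein, with 29.9, and Pura, a nucleic acid-binding protein, with 29.4, had p-values of 0.0952, 0.0942 and 0.191 in the authors' deposited table. All 4 of these peaks hold a site of another family. Further members with many wild-type reads were Smek2, a subunit of protein phosphatase 4 (31.0), and Dcp1a, an activator of messenger RNA decapping (30.6). After them came Gnai2, an inhibitory G protein subunit (27), Acly, the ATP citrate lyase (26.9), the paracaspase gene Malt1 (26.5) and Rhot1, a mitochondrial GTPase (26.1).

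**Figure D2:**
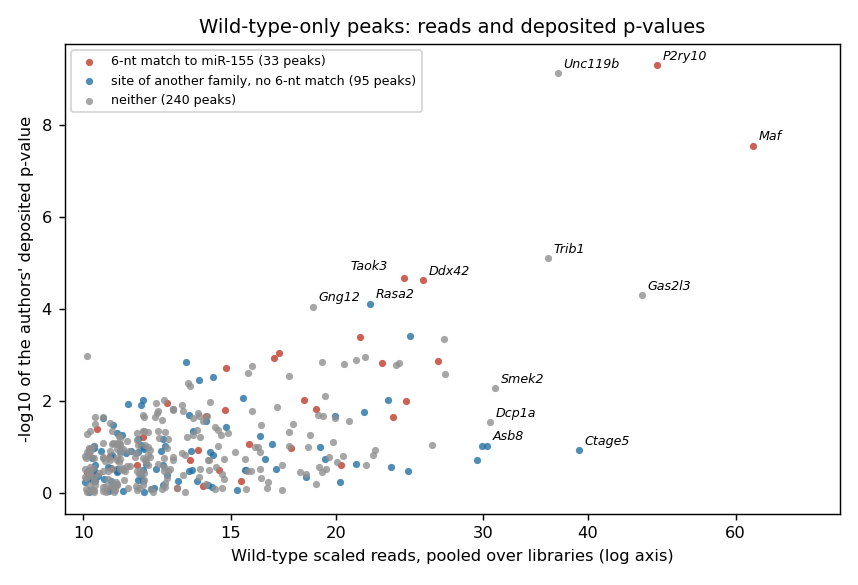
Each point is 1 of the 368 wild-type-only peaks, with its pooled wild-type scaled reads (log axis) and the negative log10 of the p-value in the authors' deposited table; peaks with 30 or more reads or an adjusted p under 0.05 are named. Colours give 33 peaks with a 6-nt match to miR-155, 95 with a site of another family only and 240 with neither; Ctage5 and Asb8 lie low in spite of many reads.

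A 6-nt match to miR-155 was present in 33 of the 368 wild-type-only peaks (8.97%), in 3 of the 182 knockout-only peaks (1.65%) and in 3.63% of the 6532 peaks with reads in both genotypes, at least 10 wild-type reads and no longer miR-155 site. The rule did not use these short matches. The gap lay mostly in the 6mer, found in 15 wild-type-only peaks (4.08%), in 0 of the knockout-only peaks and in 47 of the peaks with reads in both genotypes (0.720%). The 6mer-A1 was found in 12 wild-type-only peaks (3.26%), 0.549% of knockout-only peaks and 1.64% of peaks with reads in both. For the offset 6mer the shares lay close together, at 1.63%, 1.10% and 1.32% in the same order. No test was made over peaks, which are not replicates.

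The share with a 6-nt match went with reads. It was 24.4% (10 of 41) in wild-type-only peaks of 20 or more wild-type reads, 10.2% (16 of 157) at 12 to under 20 reads and 4.12% (7 of 170) at 10 to under 12. Among peaks with reads in both genotypes the 3 shares were 3.76%, 3.77% and 2.68%. Among knockout-only peaks, classed by knockout reads, they were 8.33% (2 of 24), 1% (1 of 100) and 0% (0 of 58), so they too were higher with more reads, on few peaks. At 10 to under 12 reads, the largest of the 3 classes, the wild-type-only share thus came closest to that of peaks with reads in both genotypes. The 6mer alone still differed there, on few peaks. It was found in 2.35% of wild-type-only peaks (4 of 170) and in 0.244% of peaks with reads in both genotypes (2 of 821).

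The 15 peaks with the 6mer belong to 14 genes. After Maf and P2ry10 the most wild-type reads were held by Malt1, the paracaspase that links antigen receptors to NF-kB (26.5 scaled reads), and Cbfb, the partner subunit of the RUNX transcription factors (24.2 at peak 7). Taok3 held 24.2, Nr3c1, the glucocorticoid receptor, 23.4, and Nedd4, a ubiquitin ligase, 21.4. The rest, between 10.3 and 18.9, were the second Cbfb peak and those of Prpf4, Dmtf1, Homer1, Ptp4a1, Mef2c, Gpr174 and Plekha3.

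Cbfb was the only gene with 2 members that both hold the 6mer. Its peaks 3 and 7 start 269 and 1275 nt into the 3' UTR, and both were listed at 0 in the knockout, with 18.9 and 24.2 scaled reads in wild type. The stretches shown above share the 14 nt tgGCATTAttttag. Of its 8 other peaks, peak 6 held 13.2 scaled reads in KO cells and 24.2 in WT cells. Peaks 9 and 10 also hold a 6-nt match to miR-155 but kept knockout reads. Peak 9 held 12.8 in KO cells and 5.86 in WT cells, and peak 10 held 3.17 in KO cells and 6.40 in WT cells.

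In 8 of the 15 peaks the 6mer followed a G, giving GGCATTA, and in the other 7 it followed a T. Among the 47 peaks with a 6mer and reads in both genotypes, 9 had GGCATTA and 35 had TGCATTA. The members printed above with GGCATTA are those of P2ry10, Prpf4 and Cbfb, and Homer1 and Plekha3 share it. This split was looked at after the sequences had been seen.

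Over all 6-letter words, GCATTA had the largest excess in share, 4.08% of wild-type-only peaks against 0.720% of peaks with reads in both genotypes, out of 4089 words ranked. It was followed by TGGCAT, at 4.08% and 1.12%, which overlaps it in the GGCATTA peaks. At the other end, TGTGAA was found in 3.26% of wild-type-only peaks and 8.16% of those with reads in both, GCTGCT in 3.53% and 7.49%, and ACACTA in 5.43% and 8.83%. In peaks with reads in both genotypes and under 16 wild-type reads, the shares of these words were 8.73%, 6.40% and 6.08% in the same order. For ACACTA that lies near the wild-type-only share. TGTGAA lies within sites of miR-27 and miR-23, GCTGCT within sites of miR-15/16 and ACACTA within sites of miR-142-3p.

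Matches with 1 mismatch to the 7-nt site, at microRNA bases 3 to 7, were present in 29 wild-type-only peaks (7.88%), in 4.40% of knockout-only peaks and in 5.77% of peaks with reads in both genotypes. Gas2l3 peak 7 and Gnai2 peak 2 had the most reads among these. A full 7-nt or 8-nt site lay just outside the deposited sequence, within 20 nt on the transcript, in 5 of the 361 wild-type-only peaks that could be placed (1.39%), in 0 of 179 knockout-only peaks and in 0.455% of peaks with reads in both. The 5 are peaks of Etv3, an ETS family repressor, Clcn6, a chloride transporter, Hiat1, Rora, a nuclear receptor, and Nrip1, a nuclear receptor corepressor. Within 50 nt there were 18 (4.99%), against 1.54% of peaks with reads in both.

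Sites of the other 15 families searched were present in 101 wild-type-only peaks (27.4%), 28.0% of knockout-only peaks and 41.6% of peaks with reads in both genotypes. That share also differed by reads. Among the peaks with reads in both genotypes, 32.2% of those with 10 to under 12 wild-type reads held such a site and 45.7% of those with 20 or more. Among wild-type-only peaks the shares were 27.6% and 29.3%. Sites of more than 1 family were present in 4 wild-type-only peaks (1.09%) and in 5.54% of peaks with reads in both. The 4 are Plcxd2 and Gnptab, each with let-7 and miR-27 sites, Mex3c, with miR-30 and miR-26, and Psd4, with miR-19 and miR-25/92. No searched match of any kind was found in 224 wild-type-only peaks (60.9%) and in 67.6% of knockout-only peaks. Of peaks with reads in both genotypes 52.99% held none, and of those with under 16 wild-type reads 59.8%, close to the wild-type-only share.

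No family predominated, as the plot of sites by family shows. The most frequent was miR-25/92, in 12 wild-type-only peaks (3.26%), followed by the miR-17 family, miR-19, miR-15/16 and let-7 with 10 each (2.72%) and miR-26 with 9 (2.45%). The miR-30 and miR-27 families had 7 each, miR-142-3p, miR-21 and miR-29 had 6 each, miR-23 had 5, miR-181 and miR-24 had 3 each and miR-146 had 1. In peaks with reads in both genotypes the shares were 5.88% for miR-15/16, 5.21% for the miR-17 family, 4.13% for miR-27, 4.03% for miR-142-3p, 3.97% for miR-19, 3.93% for miR-25/92 and 3.46% for miR-23. For let-7 and miR-26 they were 2.31% and 2.36%. In the 1890 of these peaks with under 16 wild-type reads, closer in reads to the wild-type-only peaks, miR-25/92 stood at 2.22% and miR-19 at 2.54%, below their wild-type-only shares. In the same peaks miR-15/16 stood at 4.76%, the miR-17 family at 4.34%, miR-27 at 3.70%, miR-23 at 3.60% and miR-142-3p at 2.28%, above their wild-type-only shares. The order for miR-25/92 and miR-19 thus depended on which peaks were compared. By class, the 105 sites in wild-type-only peaks were 40 8mers (38.1%), 35 7mer-m8 and 30 7mer-A1 sites, against 34.2% 8mers among the 3109 sites in peaks with reads in both.

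**Figure D3:**
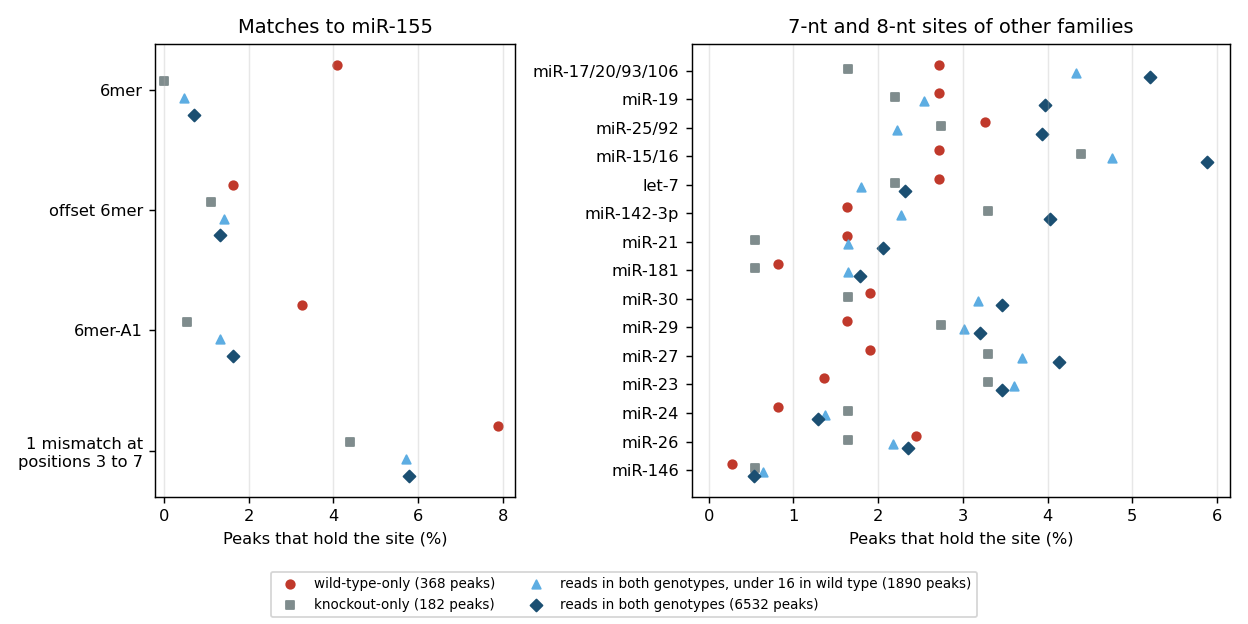
Share of peaks (in percent) with each 6-nt or 1-mismatch match to miR-155 (left) and with a 7-nt or 8-nt site of each of 15 other families (right), for wild-type-only peaks, knockout-only peaks and peaks with reads in both genotypes, all or under 16 wild-type reads. The 6mer stands at 4.08% in wild-type-only peaks and at 0 in knockout-only peaks; except for let-7 and miR-26 the wild-type-only point lies left of that for all peaks with reads in both genotypes.

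Members with family sites included several regulators of T cells, all listed at 0 in the knockout. Rc3h2 (Roquin-2), which degrades messages of costimulatory genes, had 13.2 scaled reads in wild type at peak 2, with the miR-24 site shown above. That 8-nt site starts at 465 nt and the peak ends at 469 nt, so the site runs on into the flank of the deposited sequence. Tank, which modulates NF-kB and interferon signalling, had 21.6 at a miR-17 family site. Fyn, a SRC family kinase of the T cell receptor pathway, had 13.5 at a miR-27 site, and the lactate carrier gene Slc16a1 16.5 at a miR-29 site.

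Tnrc6a, the GW182 protein that links Argonaute to deadenylation, had 24.5 scaled reads in wild type at a miR-23 site. Rab12, a small GTPase, had 24.4 at a miR-142-3p site, and Phlpp2, a phosphatase of AKT, had 23.3 at a miR-25/92 site. The zinc carrier gene Slc39a3 had 23.1 at a miR-21 site, Matr3, a nuclear matrix protein, 21.1 at a miR-26 site, and the signalling adaptor Frs2 19.2 at a miR-17 family site. Further values were those of Zcchc2 at a miR-30 site (19.4), Orc4 of the origin recognition complex at a miR-19 site (16.8) and Ficd at a miR-15/16 site (15.3). The ubiquitin ligase gene Mul1 had 15.6 at a miR-19 site, Mpp1 14.3 at a miR-25/92 site and the cyclin gene Ccnl2 14.2 at a miR-29 site. The orphan receptor gene Nr6a1 had 13.4 and Fam102a 12.2 at miR-181 sites, and Apaf1, the apoptosome scaffold, had 12.03 at a miR-23 site. Of all 101 members with a family site, Rasa2 alone had an adjusted p under 0.05.

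Short elements of RNA-binding proteins and of polyadenylation, searched on the messenger RNA strand, were each found at a lower share than in all peaks. ATTTA, the AU-rich element, was found in 10.3% of wild-type-only peaks and 11.6% of all peaks. The Pumilio word TGTANATA was found in 2.72% and 3.70%, the U-run TTTTTT in 3.26% and 4.99% and the polyadenylation signal AATAAA in 6.52% and 9.57%. In knockout-only peaks ATTTA stood at 12.1%, TGTANATA at 2.20%, TTTTTT at 3.30% and AATAAA at 4.40%. In peaks with reads in both genotypes the same words stood at 11.9%, 4.24%, 4.59% and 9.58%. The median G+C content was 37.2% in wild-type-only peaks, 40.4% in knockout-only peaks and 36.5% in peaks with reads in both genotypes. Peak width had a median of 36 nt in wild-type-only peaks and 39 nt both in peaks with reads in both genotypes and in all peaks. The shares of these words were not adjusted for width.

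Wild-type-only peaks were spread over whole 3' UTRs. They started at a median of 928.5 nt from the stop codon (quartiles 350.8 and 1785), next to 946 for knockout-only peaks and 873 for peaks with reads in both genotypes. By distance, 13.04% started within the first 200 nt, 38.9% from there to 1000 nt, 36.7% between 1000 and 3000 nt and 11.4% beyond. In all peaks of the table the same shares were 15.2%, 39.0%, 34.6% and 11.2%. Within 100 nt of the annotated transcript end lay 8.66% of wild-type-only peaks (31 of 358 in annotated 3' UTRs), 3.41% of knockout-only peaks and 12.3% of peaks with reads in both genotypes. Of the 368, 361 could be placed on a transcript and 358 lay in its annotated 3' UTR.

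At the extremes, 11 members began at nucleotide 11 of the 3' UTR, among them Trib1, Mdm4, Tnfsf9 and Nampt. Peak 1 of Tubb5, of Cbfb and of Tnrc6a, which are no members, also began at nucleotide 11. Why starts coincide there was not tested. The farthest were peak 7 of Aak1, a kinase of clathrin adaptors, at 13632 nt, peak 19 of Pura at 12255 nt, peak 8 of Nfat5, the osmotic stress factor, at 10957 nt and peak 29 of Nufip2 at 6609 nt. All but the Pura peak were small, with 10.2 to 12.3 scaled reads in wild type.

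Many wild-type-only peaks sat beside another peak of the same 3' UTR. For the 314 in genes with more than 1 peak, the median gap to the nearest other peak was 51.5 nt (quartiles 20 and 196), and in 81 cases it was 20 nt or less. Of these 81 neighbours 70 had knockout reads, 42 had 10 or more, and 6 carried an exact miR-155 site. Gaps were measured for wild-type-only peaks alone, so whether other peaks lie as close was not tested. Genes with a wild-type-only peak had a median of 5 peaks, as did those with a knockout-only peak, against 2 for all genes. Peak 3 of Dusp2, a MAP kinase phosphatase, was listed at 0 in the knockout and at 20.1 scaled reads in wild type, while peak 4, 20 nt away, held 156 in KO cells and 179 in WT cells. Peak 18 of the antiproliferative gene Btg2, at 0 in KO cells and 12.6 in WT cells, lay 20 nt from peak 19 with 115 in KO cells and 122 in WT cells. Peak 4 of Zfp654, at 0 in KO cells and 14.03 in WT cells, lay 17 nt from a peak with a miR-155 site, at 4.43 in KO cells and 82.1 in WT cells. The way the authors' peak caller divided reads between such neighbours is not stated in these sources.

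**Figure D4:**
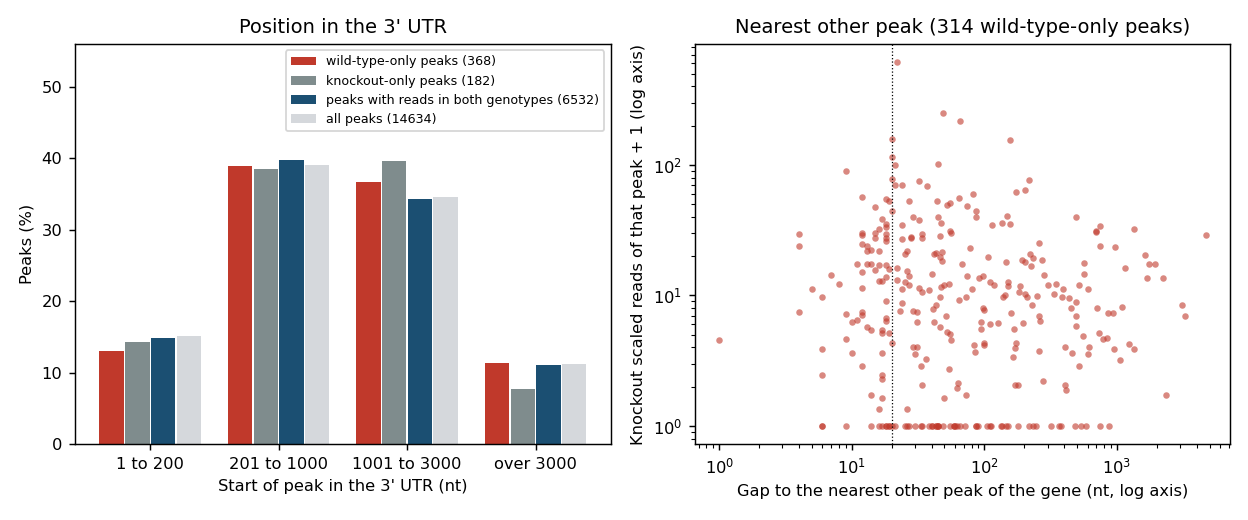
Left, share of peaks (in percent) by start in the 3' UTR (nt) for wild-type-only peaks, knockout-only peaks, peaks with reads in both genotypes and all peaks; the sets have like profiles. Right, gap from each of 314 wild-type-only peaks to the nearest other peak of its gene (nt, log axis) against the knockout scaled reads of that peak plus 1 (log axis); the dotted line marks 20 nt, and points at 1 are neighbours listed at 0.

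Most of the 340 genes were bound elsewhere in the knockout. Another peak of any kind was present in 286 of them, and another peak with knockout reads in 279 (82.1%). In 237 (69.7%) that peak held at least 10. The like share over all genes was not computed, and these genes had a median of 5 peaks against 2 for all genes. Only wild-type-only peaks were found in 54 genes, and 7 more had other peaks but no knockout reads, Slc16a1 and Etv3 among them. The 1454 other peaks with at least 10 reads in both genotypes together summed to 67814 scaled reads in KO cells and 65316 in WT cells. Their median deposited log2 ratio, wild type over knockout, was 0.07 (quartiles -0.52 and 0.80), next to 0.04 (-0.55 and 0.67) for 8082 such peaks of other genes in the authors' deposited table. Outside the chosen peaks these genes showed wild-type and knockout reads of like size, as the plot of their other peaks shows. The set of other peaks leaves out wild-type-only peaks and keeps any knockout-only ones, so the likeness is partly set by the choice of peaks. The other genes hold no wild-type-only peak by definition.

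**Figure D5:**
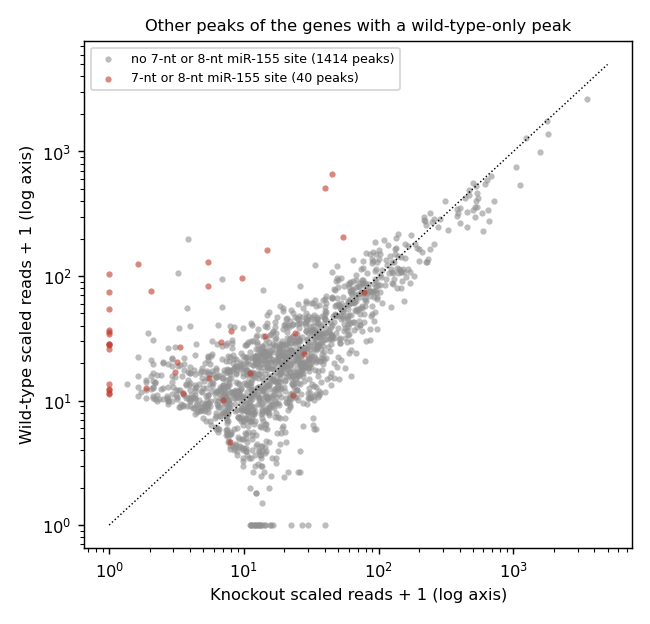
Other peaks of the 340 genes with a wild-type-only peak, by knockout scaled reads plus 1 (x) and wild-type scaled reads plus 1 (y), both on log axes, for the 1454 peaks with at least 10 reads in both genotypes together. Peaks without a miR-155 site (1414, grey) lie along the dotted line of equal reads, and many of the 40 with a 7-nt or 8-nt site (red) lie above it.

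Some of these genes also hold an exact miR-155 site elsewhere. A peak with a 7-nt or 8-nt site was present in 43 of the 340 genes (12.6%), next to 242 of all 4165 genes (5.81%), and 21 (6.18%) held another peak that was lower in the knockout at an adjusted p under 0.05, next to 79 of all genes (1.90%) with any such peak. The number of peaks per gene varied with this. A wild-type-only peak was present in 3.18% of genes with 1 peak, 14.3% of those with 5 to 9 and 37.5% of those with 20 or more. Per peak the share ran the other way, from 3.18% in genes with 1 peak to 1.56% in genes with 20 or more.

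Of the 340 genes 314 had 1 wild-type-only peak, 24 had 2, and Fbxo11 and Fcho2 had 3. Fbxo11, a ubiquitin ligase subunit, had its 3 at 11.0, 11.8 and 11.8 scaled reads in wild type, between position 56 and 413 of a 3' UTR with 15 peaks. Peak 2 of this gene held 98.3 in KO cells and 83.7 in WT cells, and peak 6 held 5.93 in KO cells and 55.5 in WT cells. Fcho2, a factor of clathrin-coated pit formation, had 14.2, 16.9 and 11.0 in wild type, while its peak 1 held 146 in KO cells and 142 in WT cells.

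Jarid2, a cofactor of the Polycomb complex PRC2 and a known miR-155 target, had wild-type-only peaks of 18.7 and 11.7 scaled reads without a miR-155 match. Its peak 2, with an exact site, held 4.46 scaled reads in KO cells and 129 in WT cells. Rc3h2 had 17.8 and 13.2 in its wild-type-only peaks, while its peak 1, with an exact site, held 0.634 in KO cells and 123 in WT cells. Both Phf6 peaks, 23.6 and 13.7 in wild type, lay in a 3' UTR with few knockout reads, whose other 2 peaks held 8.80 and 2.55 in the knockout and 14.9 and 1.44 in wild type. In Utrn, Gimap4, Gpr174 and Kdm5b, other genes with 2 members, the peak with most reads held 611, 451, 526 and 131 scaled reads in the knockout, against 551, 248, 401 and 165 in wild type.

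Across 13 gene lists for T cells, wild-type-only peaks were spread over many functions. Among genes with any peak, 7 of 29 of NF-kB and MAP kinase signalling held one (24.1%), 5 of 15 of apoptosis and p53 (33.3%), 6 of 29 ubiquitin ligases and deubiquitinases (20.7%) and 4 of 26 known miR-155 targets (15.4%), next to 8.16% of all genes. Per peak the same lists stood at 4.32%, 2.53%, 3.62% and 1.72%, next to 2.51% of all peaks. The other lists held 3 of 26 (T cell receptor and costimulation), 3 of 26 (cytokines and JAK-STAT), 4 of 33 (lymphocyte transcription factors), 3 of 16 (PI3K-AKT-mTOR), 5 of 26 (cell cycle), 4 of 36 (chromatin regulators), 4 of 25 (microRNA pathway), 5 of 31 (membrane traffic) and 4 of 19 genes (solute carriers). Per peak these other lists ran from 1.51% (lymphocyte transcription factors) to 2.87% (membrane traffic), with solute carriers at 4.13%. All 13 lists thus lay above the share of all genes, the lowest at 11.1%, but per peak they lay on both sides of 2.51%. The peaks of listed genes that had an adjusted p under 0.05 were those of Maf and Rasa2.

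Named by their wild-type reads, with 0 in the knockout, the known targets beside Maf and Jarid2 were Myo10 (11.0 scaled reads) and Bach2, a repressor of effector fate (10.1). In the NF-kB and MAP kinase list, after Malt1, Rasa2 and Dusp2, came Rasa1, another Ras GTPase-activating protein (14.6), Sos1, a Ras exchange factor (12.5), Traf3 (11.1) and Dusp4 (10.4). Of costimulation genes, the ubiquitin ligase gene Cblb had 15.9 and Tnfsf9, the ligand of 4-1BB, 10.9. The cytokine and JAK-STAT list held the kinase gene Jak1 (13.7) and the receptor genes Il12rb2 (11.9) and Il2ra (11.4). Of transcription factors, Nr4a3 had 2 peaks (15.6 and 11.6) and Foxp1 1 (11.7).

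The cell cycle list held Rbl1, a retinoblastoma-like repressor (22.1 scaled reads in wild type), Cdk2 (12.4) and E2f2 (12.01). The apoptosis list held Mdm4, a p53 inhibitor (20.2), and the survival genes Bcl2 (16.6) and Xiap (11.1). In the PI3K list Pdpk1 had 10.7 and Inpp4b 10.2. Among genes of RNA control the stabilising factor Elavl1 (HuR) had 14.1 and Celf2 10.3. Chromatin regulators included Kdm5b with 2 peaks (11.8 and 10.7) and Tet2 (10.05), and small GTPases and traffic genes Dock10 (21.7), Rac1 (17.6), Ap1g1 (13.9 and 11.1) and Snx13 (11.7). Of the solute carrier list Slc39a10 had 12.5, the hexokinase gene Hk2 11.2 and Slc38a2 10.2. Apart from Rbl1, Mdm4 and Dock10, each of these peaks held under 20 reads.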

How the data were processed

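AGO2 HITS-CLIP libraries of miR-155 KO and WT T cells were read through 1 table. The submitters' processing notes name Bowtie 0.12.7 and mm9. The authors' peak caller, duplicate handling, scaling and test were not given in the sources used. The deposited log2 columns, per the file headers, hold each genotype's reads and the ratio of wild type to knockout. The deposited p-value, per the file headers, is that of differential binding. The deposited start and end of each peak (used as a score of position) count nt from the start of the 3' UTR. Each log2 column was taken as log2(1 + scaled reads), with all libraries of a genotype pooled, and reversed to reads. The deposited sequence extends 6 nt beyond each member on both sides. Depth is unknown and no counting intervals were computed.

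Adjusted p-values are Benjamini-Hochberg values across the 14634 peaks. Sequences were searched for 6-nt to 8-nt matches to miR-155 and for 7-nt and 8-nt sites of 15 families, on the message strand. GRCm38 positions come from exact matches to GENCODE M21 transcripts. The members and gene lists were chosen with earlier results of these data known. Named were members with an adjusted p under 0.05, the 15 with most reads, genes with 2 or more members, up to 4 per list and 2 per family, the 6 with most reads and a 6-nt match, and extremes of position and of the read limit; some are covered by counts only. A few named members are not reported here. The set under 16 wild-type reads, the split of the 6mer by the base before it and the read classes of sites were added after the data were seen. Searches and adjustment were tested on simulated data. Alternatives varied the read minimum, the site definition, the searched region and the p threshold. Python 3.11.15, NumPy 2.4.6, pandas 2.3.3, SciPy 1.17.1 and Matplotlib 3.10.9 were used.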

Additional observations from a re-analysis of the deposited data

How the results depend on the processing

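No paired analysis was possible because the table pools the libraries of each genotype, so no column carries a replicate number; for the same reason no library could be left out. Of 28 alternative values, 17 stayed close to the reported value. The number of wild-type-only peaks was 1238 with a minimum of 5 wild-type reads and 41 with a minimum of 20, and the share listed at 0 in the knockout was then 12.3% and 1.08%. A Bonferroni adjustment left 3 peaks under 0.05. The share of peaks with a site of another family was 10.9% for 8-nt sites only and 33.4% with 6-nt sites counted, next to 15.6% and 52.6% of peaks with reads in both genotypes. The share with a 6-nt match to miR-155 was 24.4% at a minimum of 20 reads. The share of genes with another peak in the knockout was 69.7% at 10 and 57.9% at 20 knockout reads. The median log2 ratio of all other peaks of these genes, low ones included, was 0.20. Counting a knockout value below 1 as 0, chosen after seeing the data, gave 424 peaks. The cause of these shifts was not tested. Members with few reads limit every count: 170 of 368 held under 12.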
